A study of Homo sapiens with 16 samples.

Results

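The 2 lentiviral control lines of a study in SW480 cells were compared with each other: Control, made with the overexpression vector, against shScrambled, made with the short hairpin RNA (shRNA) vector. The rule took the 3 Control samples and the 2 shScrambled samples, 5 of the 16 samples of the series, and repeated the comparison without Control 2. SW480 is an established human colon adenocarcinoma line, and polyadenylated RNA of 6 lines made from it was sequenced to follow the knockdown and overexpression of Ajuba, a LIM domain scaffold protein. shScrambled carried the pLKO.1-puro vector with a control hairpin of random sequence. Control carried the Phage_CMV_C_FLAG_HA_IRES_PURO vector, from which the Ajuba insert had been cut out. Both lines were selected with 1.5 µg/mL puromycin and, like all lines, stood at passages 10 to 18. Beside them, values are given for Parental, the untransduced cells (n = 2), for shAjuba1 and shAjuba2, which carry the shRNA vector against Ajuba (n = 3 each), and for Ajuba OE, which carries the overexpression vector with its insert (n = 3). Each construct was present in 1 transduced line, so the vector, the transduction and selection of that line and its later culture cannot be told apart. The study calls the replicates technical, so the p-values measure the spread between samples of a line and not between transductions.

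Both lines serve in the study as negative controls, one for the knockdown and one for the overexpression, and the comparison asks how far 2 controls of the same cells differ. A lentiviral vector integrates into the genome at sites that differ from cell to cell. In pLKO.1 a U6 promoter drives a hairpin RNA that Dicer processes and Argonaute proteins load, whereas a CMV promoter drives a messenger RNA in the overexpression vector. SW480 cells carry a truncated APC protein, so beta-catenin is active in them without a Wnt signal, and they are known to hold cells of more epithelial and more mesenchymal shape in the same culture.

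The 5 samples held between 34334603 and 50312458 counted read pairs, within the range of all 16 samples (30132396 to 69684675). Levels are given as read pairs per 1000000 counted (RPM). AJUBA (ENSG00000129474, chr14:22971177-22982551 in hg38), which neither construct targets, was at 89.6, 100.5 and 89.4 RPM in Control 1, 2 and 3 and at 83.4 and 81.6 RPM in shScrambled 1 and 2. The 3 Control samples lay above both shScrambled samples, but the log2 fold change of 0.19 ± 0.10 (standard error, SE) did not pass the test (adjusted p = 0.368), and Parental was at 88.8 and 91.6 RPM. Its relatives LIMD1 and WTIP, and EPHA2, EGFR and RPS6, did not pass it either. Of 12 colon epithelial markers 8 reached 1 RPM. The sum of the 12 was 4861 to 5978 RPM in Control and 4078 to 4219 RPM in shScrambled. KRT8 and KRT18, which made up most of this sum, did not pass the test (adjusted p = 0.135 and 0.0911). CDX2 passed it as higher in Control, and VIL1 and CDH17 as lower. CDX1 and CEACAM5 of this list were at or near 0. The defining markers of fibroblasts (DCN), leukocytes (PTPRC) and endothelium (PECAM1, CDH5 and KDR) were also at or near 0 in both lines, but other markers of these lists were detected, among them COL1A1, PDGFRB, LYZ and VWF. The 6 leukocyte markers, 4 of which reached 1 RPM, summed to 5.87 to 7.11 RPM in Control and 6.08 to 6.67 in shScrambled. The 3 kidney epithelial markers summed to 56.4 to 71.2 and 55.1 to 64.5 RPM, nearly all of it PAX8 and LHX1. Of these 2 LHX1 was a DEG, at 19.1 to 22.2 RPM in Control and 10.5 to 11.6 in shScrambled (adjusted p = 0.0105). Control 2 stood apart from Control 1 and 3: its ribosomal protein genes summed to 18108 RPM, against 33440 and 31006 in the other Control samples. Replicate 2 was also low in Ajuba OE, at 22853 RPM (46008 and 34136 in its other samples), and in shAjuba2, at 13804 RPM (28172 and 33634). It was not low in shAjuba1, at 30949 RPM (30252 and 32715), and was above replicate 1 in Parental, at 40925 against 37182 RPM. In shScrambled it was at 30777 against 34261 RPM. One long non-coding RNA model on the short arm of chromosome 21 (ENSG00000281181) was at 388, 11043 and 5683 RPM in Control and at 69.5 and 153 in shScrambled. The same model ranged from 0.248 to 4958 RPM within shAjuba1, and it did not pass the test between the 2 control lines.

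In the comparison of the 2 controls 1272 of 21940 genes tested (5.80%) were differentially expressed genes (DEG), at a Benjamini-Hochberg adjusted p-value under 0.05 by the quasi-likelihood test of edgeR. Of these 471 (2.15% of the genes tested) were higher and 801 (3.65%) were lower in Control than in shScrambled. They held 1027 protein-coding genes and 170 long non-coding RNAs. The median absolute log2 fold change of the DEG was 0.98, and 613 differed by at least 1 on the log2 scale, 186 of them higher and 427 lower in Control. Differences of this size were thus more often lower than higher in Control. Without Control 2 the DEG rose to 3669 of 21087 genes (17.4%), with 1519 higher and 2150 lower. All 1264 of the first DEG that could be tested again remained DEG in the same direction (5.99% of the genes tested again). The count was sensitive to single samples, with 142 DEG left without shScrambled 1, 129 without shScrambled 2 and 209 without Control 3.

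**Figure D1:**
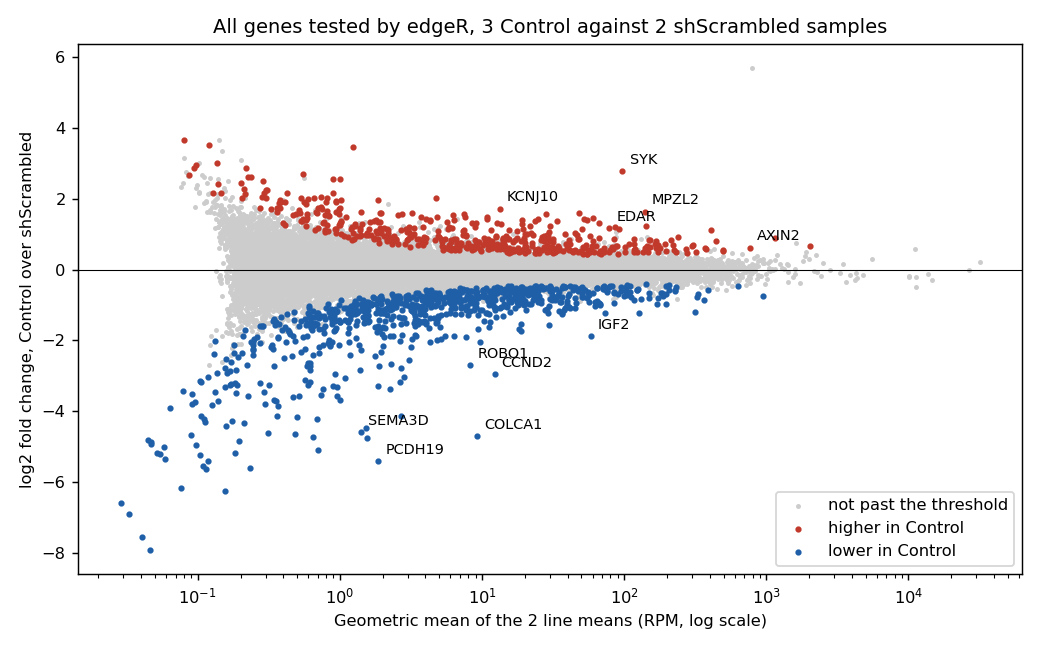
Log2 fold change of Control over shScrambled (vertical axis) against the geometric mean of the 2 line means in RPM (horizontal axis, log scale), 1 point for each of the 21940 genes tested, with the 471 DEG higher in Control in red and the 801 lower in blue. Blue points reach further from 0 than red ones, with PCDH19 at −5.41 and SYK at 2.79; the 4 DEG with no count in any Control sample are among the lowest points, where the fitted value depends on the prior count.

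SYK (ENSG00000165025, chr9:90801787-90898549), a tyrosine kinase best known from signalling below immune receptors, had the smallest adjusted p of the protein-coding genes. It was at 267, 239 and 258 RPM in Control 1, 2 and 3 and at 37.5 and 36.7 RPM in shScrambled 1 and 2. The lines did not overlap, and the fold was 6.90 (log2 fold change 2.79 ± 0.11, adjusted p = 0.000398). Parental, at 220.0 and 213 RPM, lay just below the Control samples, so that shScrambled was the line that stood apart. FGF19, a secreted hormone of the fibroblast growth factor family, was at 91.2, 83.4 and 91.1 RPM in Control and at 32.7 and 35.2 RPM in shScrambled (log2 fold change 1.39 ± 0.11, adjusted p = 0.00152), with Parental at 87.4 and 95.5 RPM. EDAR, the receptor of ectodysplasin, was at 123, 114 and 113 RPM in Control and 52.4 and 52.1 RPM in shScrambled, a log2 fold change of 1.17 ± 0.10 (adjusted p = 0.00244), with Parental at 118 and 121 RPM. For both genes Parental lay in or just above the Control range.

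ASCL2, a basic helix-loop-helix factor of intestinal stem cells and a target of beta-catenin, was at 16.7, 18.3 and 18.5 RPM in Control and 6.56 and 6.82 RPM in shScrambled (log2 fold change 1.42 ± 0.11, adjusted p = 0.00191). CDH1 (chr16:68737292-68835537), which encodes E-cadherin of the adherens junction, was at 21.5, 19.2 and 19.6 RPM in Control and 7.87 and 8.23 RPM in shScrambled. Its log2 fold change was 1.33 ± 0.12 (adjusted p = 0.00247), every Control sample lay above both shScrambled samples, and Parental was at 21.2 and 24.7 RPM. The cell adhesion protein gene MPZL2 differed by 1.64 ± 0.17 and the inwardly rectifying potassium channel gene KCNJ10 by 1.72 ± 0.13 on the log2 scale. Among the other protein-coding genes named by the size of their p, the log2 fold change was 1.37 for the reductase DHRS2, 1.29 for SMCO2, 1.22 for the actin-binding protein MISP, 1.48 for TCIM and 1.96 for KANK4. ZC3H11B, at 1.41, is near-identical to another locus, so its reads may be split between copies. The calpain CAPN8, at 41.7, 56.8 and 45.2 RPM in Control and 14.1 and 18.6 in shScrambled, was the gene of this group for which Parental (28.9 and 23.7 RPM) lay nearer shScrambled. COX7C, a subunit of cytochrome c oxidase with many processed copies, had a log2 fold change of 1.59 ± 0.32, with Control 2 at 49.1 RPM against 103 and 97.4 RPM in Control 1 and 3.

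The genes that were lower in Control included cues and receptors of cell guidance, growth factors and matrix genes, and several of them were nearly silent. PCDH19 (ENSG00000165194, chrX:100291644-100410273), a protocadherin of cell adhesion, was at 0.146, 0.326 and 0.364 RPM in Control and at 13.3 and 11.7 RPM in shScrambled. The lowest shScrambled sample was thus far above the highest Control sample, and the log2 fold change was −5.41 ± 0.24 (adjusted p = 0.000412). Parental, at 4.84 and 4.22 RPM, lay between the 2 lines and overlapped neither. SEMA3D, a secreted semaphorin, was at 0.291, 0.204 and 0.364 RPM in Control, 6.88 and 7.06 in shScrambled and 7.73 and 6.40 in Parental (log2 fold change −4.60 ± 0.21, adjusted p = 0.000412). Here shScrambled and Parental overlapped, and Control stood apart. The Slit receptors ROBO1 and ROBO2, neighbours on chromosome 3 (chr3:78597239-79767998 and chr3:75906695-77649964), were both lower in Control. ROBO1 was at 3.58, 2.98 and 3.16 RPM in Control and 21.7 and 20.5 RPM in shScrambled, a log2 fold change of −2.70 ± 0.13 (adjusted p = 0.000412). ROBO2 was at 0.0874, 0.143 and 0.137 RPM and 3.37 and 3.42 RPM, a log2 fold change of −4.72 ± 0.24.

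CCND2, which encodes cyclin D2 of the G1 phase, was at 4.54, 5.02 and 3.62 RPM in Control, 35.1 and 33.1 in shScrambled and 19.02 and 17.3 in Parental (log2 fold change −2.94 ± 0.15, adjusted p = 0.000448). IGF2, the imprinted insulin-like growth factor, was at 29.3, 29.1 and 32.4 RPM in Control, 114 and 111 in shScrambled and 66.8 and 62.4 in Parental (log2 fold change −1.88 ± 0.10, adjusted p = 0.000448). For both genes Parental lay between the 2 control lines, without overlap. PLAU, the urokinase that activates plasminogen, showed another order: Control, at 4.57, 5.10 and 4.62 RPM, enclosed the Parental values (4.64 and 4.70 RPM), and shScrambled was at 20.2 and 19.4 RPM (log2 fold change −2.04 ± 0.11, adjusted p = 0.000537). CSMD2 had Parental values that overlapped Control, with 0.495, 0.714 and 0.865 RPM in Control, 0.549 and 0.429 in Parental and 6.94 and 7.87 in shScrambled. The log2 fold change was −4.76 for RASSF6, a Ras association domain protein, −3.17 for the neural transcription factor POU3F2, −4.48 for the interleukin 31 receptor, −3.32 for LRATD1 and −2.79 for COL4A1 of basement membrane collagen. CCND2, IGF2, ROBO2 and PLAU overlap antisense genes, and the strand option of the counting is not given in the sources used here.

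The non-coding gene with the smallest adjusted p of all was COLCA1 (ENSG00000196167, chr11:111290787-111305498). It was at 1.60, 1.90 and 1.87 RPM in Control, 46.1 and 48.97 in shScrambled and 24.8 and 18.9 in Parental, a log2 fold change of −4.71 ± 0.12 (adjusted p = 3.47e-05). It lies opposite POU2AF3, and its neighbour POU2AF1 (chr11:111352255-111455630), a coactivator known from B cells, differed in the same direction, with a log2 fold change of −3.29 ± 0.32. RNU6-1, one copy of the gene for U6 small nuclear RNA, was at 0.233, 0.143 and 0.205 RPM in Control, 1.48 and 1.83 in shScrambled and 0.150 and 0.112 in Parental (log2 fold change −3.11 ± 0.28, adjusted p = 0.00247). Its mean was 0.133 RPM in Ajuba OE, 0.776 in shAjuba1 and 0.229 in shAjuba2. The copies of this gene are near-identical and the library was made from polyadenylated RNA, so its value is uncertain. Whether reads from the U6 promoter of the vector are among them was not tested. LINC01819 was lower in Control (−1.96), whereas ANKRD20A5P (1.56), a pseudogene with near-identical copies, LINC02457 (1.49) and LINC02432 (0.93) were higher.

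**Figure D2:**
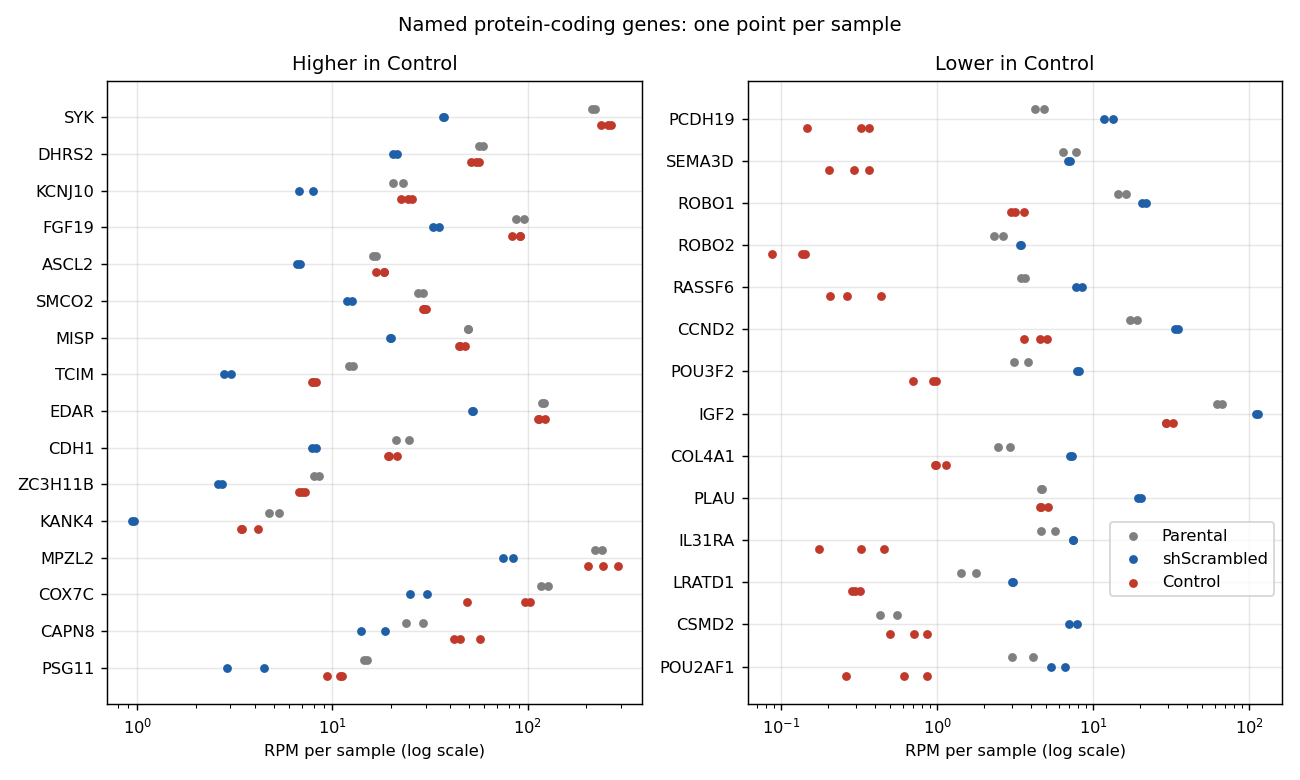
RPM per sample on a log scale for the 16 protein-coding genes named as higher in Control (left) and the 14 named as lower (right), with 1 point for each sample of Parental (grey), shScrambled (blue) and Control (red). On the left Parental points sit near the Control points for most genes, and on the right most Parental points sit between the lines or near shScrambled, as for SYK at 220.0 and 213 RPM and SEMA3D at 7.73 and 6.40 RPM.

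The promoters of the genes that differed most held fewer CG pairs than those of all genes. In the 300 bases from 250 before to 50 after the RefSeq start (GRCh38.p14), the median was 25 CG pairs for the 13139 tested genes with a promoter entry. It was 20 for 285 DEG higher in Control and 19.5 for 554 DEG lower in Control. Among DEG that differed by at least 1 on the log2 scale it was 13 for the 86 higher and 14 for the 276 lower. At least 10 CG pairs stood in 82.9% of all promoters, 53.5% of those of the higher and 61.2% of those of the lower genes of that size. Genes were not matched for expression level, and its part in these shares was not tested. The promoters of SYK, PCDH19 and COLCA1 show that the range is wide, with 19, 26 and 1 CG pairs, written in capitals on the strand of the gene (SYK chr9:90801350-90801649, plus strand; PCDH19 chrX:100410224-100410523 and COLCA1 chr11:111304999-111305298, minus strand).
SYK: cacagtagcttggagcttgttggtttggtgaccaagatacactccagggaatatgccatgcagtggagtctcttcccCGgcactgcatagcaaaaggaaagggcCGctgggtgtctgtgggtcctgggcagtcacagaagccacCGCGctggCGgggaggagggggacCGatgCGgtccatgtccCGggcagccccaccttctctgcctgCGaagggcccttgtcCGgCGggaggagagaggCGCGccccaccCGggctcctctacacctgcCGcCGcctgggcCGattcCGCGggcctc
PCDH19: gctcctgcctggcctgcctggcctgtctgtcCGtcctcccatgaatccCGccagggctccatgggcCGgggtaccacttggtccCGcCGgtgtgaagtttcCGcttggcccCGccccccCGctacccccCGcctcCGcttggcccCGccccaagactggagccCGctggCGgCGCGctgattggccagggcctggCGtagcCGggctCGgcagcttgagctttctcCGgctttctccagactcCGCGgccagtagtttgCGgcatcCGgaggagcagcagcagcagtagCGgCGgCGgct
COLCA1: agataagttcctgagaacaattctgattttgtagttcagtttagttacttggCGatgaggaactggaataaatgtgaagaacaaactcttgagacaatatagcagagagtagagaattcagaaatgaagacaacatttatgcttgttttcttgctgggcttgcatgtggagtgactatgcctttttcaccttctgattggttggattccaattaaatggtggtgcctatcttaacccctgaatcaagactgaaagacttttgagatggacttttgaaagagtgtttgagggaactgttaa
Of these 2 genes, both lower in Control, PCDH19 starts in a stretch rich in CG pairs and COLCA1 does not.

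Targets of beta-catenin and feedback genes of the Wnt pathway differed between the controls in both directions. Of 22 tested, 5 were higher and 2 lower in Control, with a median log2 fold change of 0.23 against 0.01 over all genes. AXIN2, a scaffold of the complex that degrades beta-catenin and itself a target, was at 861, 1066 and 901 RPM in Control and 584 and 651 RPM in shScrambled (log2 fold change 0.62 ± 0.14, adjusted p = 0.0466). RNF43, a ubiquitin ligase that removes Wnt receptors, was at 237, 275 and 234 RPM and 147 and 155 RPM (log2 fold change 0.73 ± 0.12, adjusted p = 0.0173). SP5 (0.73), TNFRSF19 (1.01) and ASCL2 (1.42) were higher as well. The stem cell receptor LGR5, at 0.146, 0.286 and 0.273 RPM in Control and 1.43 and 1.65 in shScrambled, and the secreted inhibitor DKK4, at 1.34, 0.673 and 1.02 and 2.88 and 3.22 RPM, were lower, with log2 fold changes of −2.65 ± 0.28 and −1.61 ± 0.26. With all 5 samples 2.15% of all genes were DEG and higher, and 3.65% were DEG and lower. The DEG without Control 2 were 9 higher and 5 lower (7.20% and 10.2% of all genes). All 3 Control samples lay above both shScrambled samples for 12 of the 22 genes and below for 5, where 19.4% and 20.6% of all genes did. The summed level was 5400.0, 5474 and 5355 RPM in Control, 4180.0 and 4219.8 in shScrambled and 5581 and 5649.7 in Parental. shScrambled was thus the line with the lower sum.

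Targets of YAP and TAZ, the coactivators that the Hippo pathway restrains and that LIM proteins such as Ajuba are known to release, showed 7 of 23 genes lower in Control and 0 higher (median log2 fold change −0.22). NT5E, a surface nucleotidase, was at 27.99, 24.4 and 26.1 RPM in Control and 60.1 and 52.6 RPM in shScrambled (log2 fold change −1.10 ± 0.11, adjusted p = 0.00399). AXL, a receptor tyrosine kinase, was at 144, 149 and 144 RPM and 249.6 and 240.1 RPM (log2 fold change −0.74 ± 0.09, adjusted p = 0.00727). The log2 fold change was −1.21 for the growth factor TGFB2 and −0.85 for the GTPase-activating protein DLC1. The matricellular proteins CCN2, at 18.6, 18.5 and 15.98 RPM in Control and 30.9 and 30.03 in shScrambled, and CCN1, at 82.3, 78.8 and 78.01 and 108 and 119 RPM, had log2 fold changes of −0.77 ± 0.11 and −0.50 ± 0.10. TEAD1, the DNA-binding partner, was at −0.48 (adjusted p = 0.0495). The other targets did not pass the test, among them ANKRD1 (0.26), AMOTL2 (0.10) and LATS2 (0.24). Of all genes 3.65% were DEG and lower, and 2.15% were DEG and higher. The repeat without Control 2 gave 10 lower and 1 higher DEG, where 10.2% and 7.20% of all genes were. All Control samples were below both shScrambled samples for 13 of the 23 and above for 6, where 20.6% and 19.4% of all genes were. AJUBA itself differed by 0.19 as given above.

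Epithelial and mesenchymal genes each moved both ways. In epithelial adhesion 3 of 31 genes were higher in Control (CDH1, CDH3 and the splicing factor ESRP1) and 3 lower (CDH17, CLDN1 and CLDN3), with a median of 0.05. CDH3, P-cadherin, was at 19.05, 18.7 and 18.97 RPM in Control and 10.7 and 10.8 RPM in shScrambled (log2 fold change 0.82 ± 0.10, adjusted p = 0.00722). CLDN1, a tight junction claudin, was at 32.6, 22.5 and 28.96 RPM and 59.9 and 57.9 RPM (log2 fold change −1.06 ± 0.16, adjusted p = 0.0134). Of 25 mesenchymal and matrix genes 6 were lower in Control and 3 higher, with a median of −0.34. SPARC, a matricellular protein, was at 1.78, 1.39 and 1.75 RPM in Control and 6.58 and 6.16 in shScrambled (log2 fold change −1.95 ± 0.16, adjusted p = 0.00191). MMP2 (−1.39), COL4A1 (−2.79), LAMB1 (−0.68) and TGFBI (−0.48) were also lower. The higher genes included LAMA3 (0.51) and LAMB3 (0.44), which encode laminin chains of the epithelial basement membrane. VIM (−0.07, adjusted p = 0.783) and FN1 (−0.37, adjusted p = 0.08) did not pass the test. In the repeat without Control 2, 9 DEG were higher and 5 lower in epithelial adhesion. Among mesenchymal and matrix genes 3 were higher and 12 lower. Of all genes 7.20% were higher and 10.2% lower DEG in that repeat, and 2.15% and 3.65% with all 5 samples. The 7 fibroblast markers summed to 15.6 to 24.6 RPM in Control and 22.4 to 22.8 in shScrambled, with 2 of them reaching 1 RPM and DCN at 0. The 4 endothelial markers summed to 2.36 to 2.73 RPM in Control and 5.05 to 5.41 in shScrambled, nearly all of it VWF (adjusted p = 0.00934). Their part in the result was not tested. Among 18 genes of intestinal differentiation CDX2 was higher in Control (0.73) and 5 were lower (median −0.22), and 2 were higher and 6 lower without Control 2. The lower genes included the microvillus genes VIL1 (−0.97) and CDHR2 (−1.89), HNF4A (−0.71) and TFF3. TFF3 had no count in the 3 Control samples and 15 counts in each shScrambled sample, which makes it at least 14.7-fold lower in Control against a floor of 3 counts over the Control samples.

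**Figure D3:**
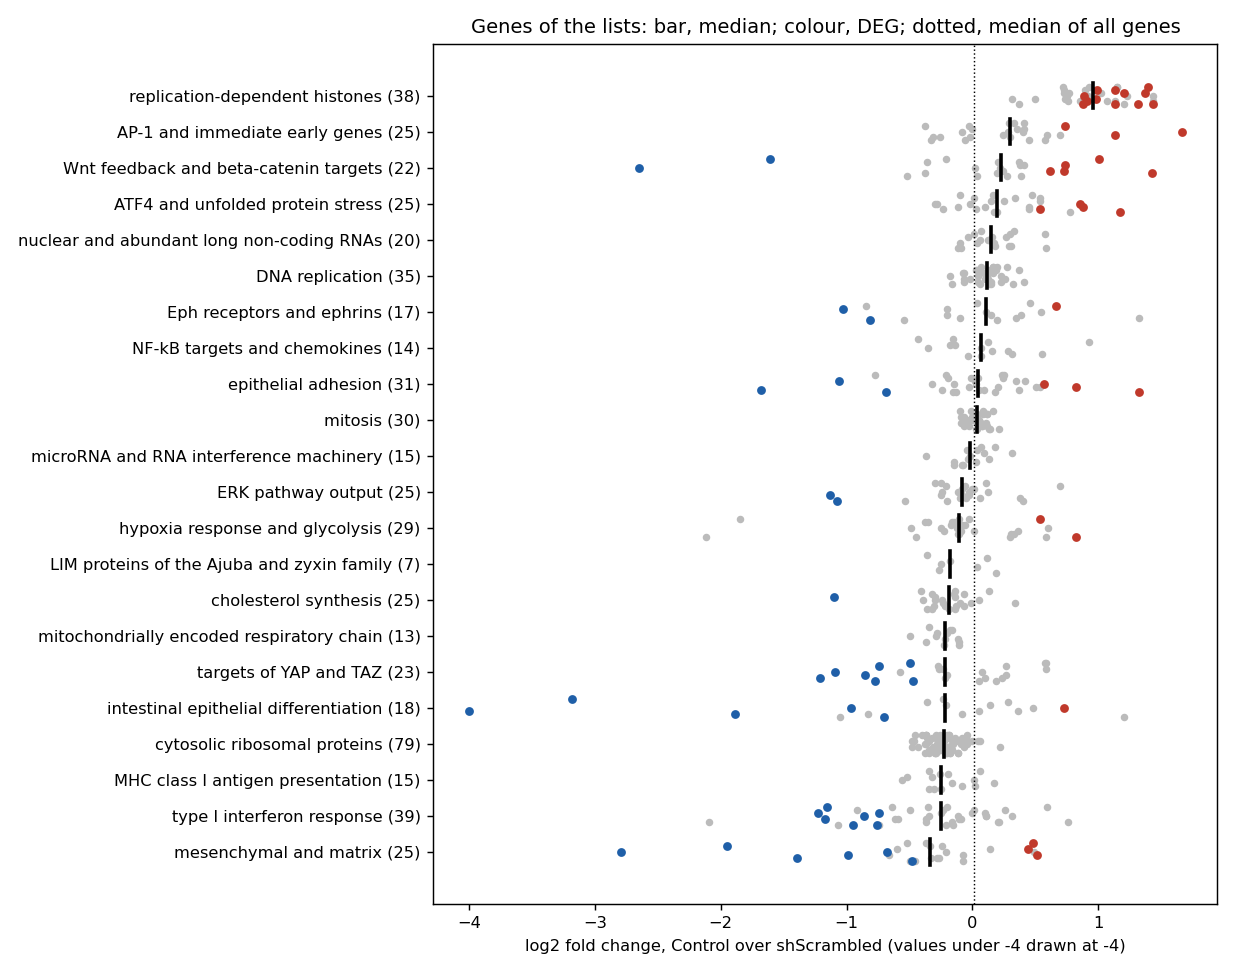
Log2 fold change of Control over shScrambled (horizontal axis) for the tested genes of 22 lists (rows, number of genes tested in brackets), with DEG in red (higher in Control) or blue (lower), other genes in grey, the list median as a bar and the median of all genes as a dotted line. The histone list lies to the right with a median of 0.96, mesenchymal and matrix genes have the lowest median at −0.34, and several lists hold DEG on both sides.

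The replication-dependent histones that passed the test were all higher in Control. These are intron-free genes expressed in S phase, whose messages normally end in a stem-loop instead of a poly(A) tail. Of 38 tested, 12 were DEG in edgeR's test and 23 by DESeq2, all higher, and the median log2 fold change was 0.96. Of all genes 2.15% were DEG and higher in edgeR's test. DESeq2, fitted to a wider set of 40525 genes, called 579 higher. All 38 had a positive value, and for 32 every Control sample lay above both shScrambled samples, as for 19.4% of all genes. H2BC11 was at 35.2, 25.3 and 32.01 RPM in Control and 11.96 and 11.6 RPM in shScrambled (log2 fold change 1.40 ± 0.16, adjusted p = 0.00546). H2BC21, a member on chromosome 1, was at 18.96, 18.95 and 19.2 RPM and 10.6 and 10.2 RPM (log2 fold change 0.89 ± 0.10, adjusted p = 0.00577), with Parental at 15.96 and 17.7 RPM. The summed level was 701, 422 and 547 RPM in Control, 317 and 253 in shScrambled and 406 and 577 in Parental. Control 2 and 3 fell within the Parental range, Control 1 lay above it, and both shScrambled samples lay below it. Without Control 2 the DEG of the list were 34 higher and 0 lower (7.20% and 10.2% of all genes), with a median of 1.13. In the same comparison 2 of 35 DNA replication genes were DEG. With all 5 samples neither the 30 mitosis genes nor the DNA replication genes held a DEG in edgeR's test or by DESeq2. Their medians were 0.04 and 0.12, with 0 and 3 genes at an unadjusted p under 0.05 in edgeR's test, where 21.2% of all genes were. Histone messages enter a library of polyadenylated RNA only in part, many of these genes are near-identical copies, and the part of either in the difference was not tested. The histone promoters share short motifs: CCAAT, on either strand, stood in 84.8% of 33 promoters against 35.7% of those of the other genes tested, and TATAAA, on either strand, in 66.7% against 6.41%. The promoter of H2BC11 (chr6:27132746-27133045, minus strand, GRCh38.p14) shows both motifs in capitals, read on either strand, and in one place the letters of TATAAA overlap with those of its reverse complement.
H2BC11: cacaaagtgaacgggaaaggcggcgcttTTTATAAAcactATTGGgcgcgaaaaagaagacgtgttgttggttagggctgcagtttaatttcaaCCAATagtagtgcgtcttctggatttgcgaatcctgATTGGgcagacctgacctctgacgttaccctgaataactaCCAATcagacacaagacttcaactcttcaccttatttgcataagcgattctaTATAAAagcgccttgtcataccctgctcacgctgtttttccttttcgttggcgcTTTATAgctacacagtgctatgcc
The letters are a description of the window and were not tied to the difference between the lines.

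Genes of the response to viral RNA that passed the test were lower in Control. Of 39 tested genes of the type I interferon response 7 were lower and 0 higher (3.65% and 2.15% of all genes). Their median was −0.25. OAS1, which senses double-stranded RNA, was at 1.98, 2.08 and 2.48 RPM in Control, 5.16 and 5.13 in shScrambled and 2.69 and 3.23 in Parental (log2 fold change −1.22 ± 0.15, adjusted p = 0.00677). MX2 (−0.86), HERC6 (−0.76), BST2 (−0.95), IFIT2 (−1.16), DDX60 (−1.17) and SAMD9 (−0.74) were the other DEG. The levels were low in both lines, as for IFIT1 at 1.08, 0.653 and 0.911 RPM in Control and 1.23 and 1.23 in shScrambled. The summed level was 1008, 943 and 1014 RPM in Control, 1107 and 1055 in shScrambled and 1110.1 and 1148 in Parental. Abundant members that were not DEG weigh most in this sum. IFITM2 was at 137, 114 and 148 RPM in Control, 128 and 120 in shScrambled and 206 and 220 in Parental. For all 7 DEG, in contrast, both Parental samples lay below both shScrambled samples. Of 15 MHC class I genes 0 were DEG in edgeR's test and 0 by DESeq2, with 6 at an unadjusted p under 0.05, all lower. Of all genes 21.2% had an unadjusted p under 0.05 in edgeR's test. Of 14 NF-kB targets 0 were DEG in edgeR's test and 1 by DESeq2, with 3 at an unadjusted p under 0.05. The machinery of RNA interference held 0 DEG among 15 genes in edgeR's test and by DESeq2, with 1 at an unadjusted p under 0.05. Its median was −0.02, with log2 fold changes from −0.37 to 0.31. DICER1 was at 131, 126 and 128 RPM in Control and 127 and 125 in shScrambled, and AGO2 at 83.5, 77.4 and 76.8 and 86.9 and 89.4 RPM. Without Control 2 the interferon genes held 15 lower and 1 higher DEG, the MHC class I genes 4 lower, the NF-kB targets 3 lower and 1 higher, and the RNA interference list 1 lower, where 10.2% of all genes were lower and 7.20% higher.

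Stress and immediate early genes were higher in Control where they passed the test. Of 25 genes of ATF4 and the unfolded protein response 4 were higher (median 0.19), and 12 without Control 2. DDIT4, an inhibitor of mTORC1, was at 9.03, 8.98 and 9.61 RPM in Control and 3.76 and 4.43 RPM in shScrambled (log2 fold change 1.17 ± 0.13, adjusted p = 0.00533). ERN1, the IRE1 sensor of unfolded protein, differed by 0.85, the lipoprotein receptor gene VLDLR by 0.88 and PHGDH, the first enzyme of serine synthesis, by 0.54. PSAT1, the next enzyme, was at 186, 101.4 and 160.4 RPM in Control and 117 and 103 in shScrambled, where Control 2 fell below shScrambled 1 and 2 and the other Control samples lay above. Of 25 AP-1 and immediate early genes 3 were higher (median 0.30): FOS at 60.4, 49.3 and 49.98 RPM in Control and 29.2 and 35.3 in shScrambled (log2 fold change 0.73 ± 0.15, adjusted p = 0.0335), EGR2 (1.66) and KLF2 (1.13). The output genes of the ERK pathway held 2 lower DEG of 25, the transcription factor ETV1 (−1.13) and SPRED3 (−1.07). Among 29 hypoxia and glycolysis genes the peptide hormone ADM (0.82) and the glycolytic regulator PFKFB3 (0.54) were higher. Of 17 Eph receptors and ephrins EFNB1 (0.67) was higher and EFNA5 (−1.03) and EFNB3 (−0.81) were lower. In cholesterol synthesis 1 of 25 genes was a DEG, lower in Control. Over all genes 2.15% were higher and 3.65% lower, so that the 1 of 25 is close to the share of all genes. With Control 2 left out, the DEG were 10 higher and 1 lower among the immediate early genes, 3 and 3 among ERK outputs, 5 and 3 among hypoxia genes, 3 and 4 among Eph receptors and ephrins, and 1 and 4 in cholesterol synthesis, where 7.20% and 10.2% of all genes were. The 7 LIM proteins of the Ajuba and zyxin family held no DEG in edgeR's test of the 5 samples or by DESeq2. An unadjusted p under 0.05 in edgeR's test was found for 1 gene, against 21.2% of all genes. Without Control 2 there was 1 lower DEG by either tool.

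Ribosomal protein genes and mitochondrially encoded genes, which make up a large share of the reads, depended on Control 2. None of 79 ribosomal protein genes was a DEG in edgeR's test or by DESeq2. An unadjusted p under 0.05 in edgeR's test was found for 4 of them, against 21.2% of all genes. A negative log2 fold change was found for 76, and the median was −0.23, but without Control 2 it was −0.02. The summed level was 33440.1, 18108 and 31006 RPM in Control and 34261 and 30777 in shScrambled, so that Control 2 alone lay outside the range of the other 4 samples. The 13 mitochondrially encoded genes had a median of −0.22 with no DEG in edgeR's test or by DESeq2 and 0 at an unadjusted p under 0.05. Without Control 2 their median was −0.46 with 9 lower DEG, where 10.2% of all genes were lower DEG. They summed to 69506, 114493 and 83829 RPM in Control, 97640.4 and 114533 in shScrambled and 73849.8 and 63280.0 in Parental. Control 2 thus fell in the range of shScrambled, and Control 1 and 3 lay below it. The 20 nuclear long non-coding RNAs held 0 DEG in edgeR's test, 1 by DESeq2 and 3 at an unadjusted p under 0.05, with sums of 21518, 25803 and 20098 RPM in Control and 16214 and 17247 in shScrambled. The highest of these sums was again that of Control 2, and 4 of these RNAs were higher DEG without it, where 7.20% of all genes were. All 76 DEG named by rule remained DEG without Control 2. For the genes named by p, by fold or as non-coding this was a condition of being named. For those added from the lists it was not.

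**Figure D4:**
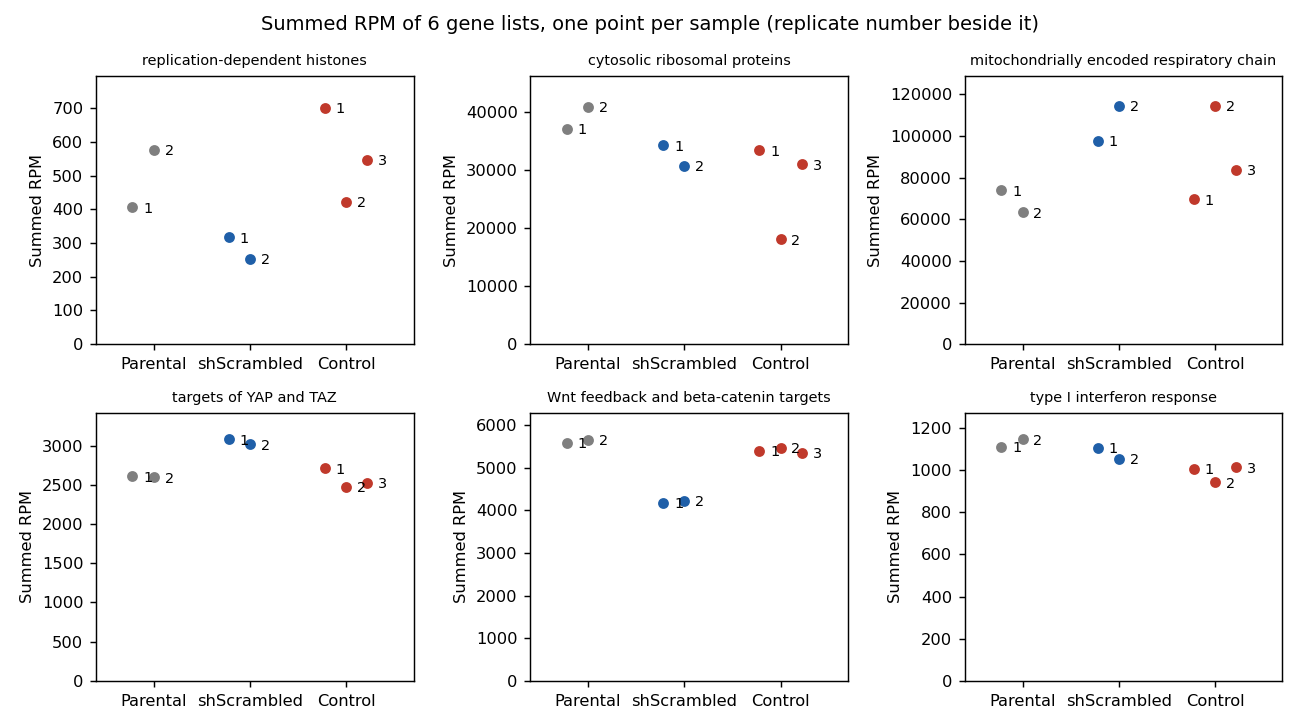
Summed RPM (vertical axis from 0) of 6 gene lists in each sample of Parental (grey), shScrambled (blue) and Control (red), with the replicate number beside each point. Control 2 has the lowest sum of ribosomal protein genes and the highest mitochondrial sum of its line, whereas the sums of Wnt targets and of YAP and TAZ targets separate the 2 control lines with all Control samples on one side.

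Parental cells, which took no part in choosing the DEG, were closer to Control than to shScrambled for most of the genes that differed. By mean log2 CPM this held for 379 of 471 DEG higher in Control (80.5%) and for 532 of 801 lower in Control (66.4%), against 52.9% of all genes tested. Both Parental samples lay strictly between the samples of the 2 lines for 534 DEG, beyond Control for 177 and beyond shScrambled for 19. Of the 36 named DEG higher in Control 31 had Parental nearer Control, and of the 40 lower ones 22 did. By mean RPM in place of mean log2 CPM, a scale added after seeing the data, the shares were 77.3% and 77.2%, against 53.2% of all genes. For the 17 genes named for the size of their p or fold as lower in Control, with 3 non-coding ones included, the count depended on the scale: Parental was nearer Control for 5 by mean log2 CPM and for 12 by mean RPM. COL4A1, PLAU, CSMD2, LINC01819 and RNU6-1 had Parental nearer Control on both scales, and SEMA3D, ROBO1, ROBO2, IL31RA and POU2AF1 had it nearer shScrambled on both. Without Control 2 the shares nearer Control were 76.6% of the higher and 69.3% of the lower DEG, against 58.8% of all genes.

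The lines that carry the same shRNA vector as shScrambled did not share its levels throughout. For the 17 genes named as lower in Control, the mean of shAjuba2 was nearer Control for 16, with CCND2 as the exception, and the mean of shAjuba1 for 6. By mean RPM in place of mean log2 CPM these counts were 17 and 14. For the 19 genes named as higher in Control, shAjuba1 was nearer Control for 10 and shAjuba2 for 9 (8 and 8 by mean RPM). COLCA1, at 46.1 and 49.0 RPM in shScrambled, was at 1.50 ± 0.251 RPM (SD, n = 3) in Ajuba OE, 4.19 ± 0.451 in shAjuba1 and 1.05 ± 0.378 in shAjuba2. All 3 means thus lay far below shScrambled and Parental, and only that of shAjuba1 was above the Control range of 1.60 to 1.90 RPM. PCDH19 was at 0.0201 ± 0.00543 RPM in Ajuba OE, 1.68 ± 0.0735 in shAjuba1 and 0.208 ± 0.0435 in shAjuba2, means that all lay below the Parental samples at 4.84 and 4.22 RPM. ROBO1 was at 4.35 ± 0.457 RPM in Ajuba OE, 9.30 ± 0.458 in shAjuba1 and 2.86 ± 0.445 in shAjuba2. SYK was at 762 ± 34.4 RPM in Ajuba OE, 77.5 ± 2.32 in shAjuba1 and 122 ± 13.4 in shAjuba2, so that the 3 lines with the shRNA vector were lower than Parental and Ajuba OE was higher. Over all DEG lower in Control, shAjuba1 was nearer Control for 62.7% and shAjuba2 for 62.4%, against 52.9% and 56.7% of all genes. For DEG higher in Control the shares were 54.6% and 59.0%. Without Control 2 the 4 shares lay between 46.8% and 51.6%, close to the 48.4% and 46.7% of all genes. Ajuba OE, which carries the vector of Control, was nearer Control for 76.9% of the higher and 90% of the lower DEG, against 61.1% of all genes. Without Control 2 its shares were 72.8% and 84.8%, against 61.8%. Among the named genes it was nearer Control for 15 of the 19 higher and 16 of the 17 lower ones (15 and 17 by mean RPM). The level of Ajuba differs between these lines too, and vector, line and Ajuba level cannot be told apart.

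The same 2 vectors meet again in Ajuba OE against the mean of shAjuba1 and shAjuba2, a comparison of 9 samples that shares none with the one above but in which AJUBA differs by 3.34 ± 0.10 on the log2 scale. Of 22220 genes 5765 (25.9%) were DEG there, 2884 higher and 2881 lower in Ajuba OE. Scaling by library size alone gave 1987 higher and 4108 lower. Of the 21401 genes also tested between the controls 2857 (13.3%) were higher and 2708 (12.7%) lower in Ajuba OE. Of the 1210 DEG of the control lines tested there 759 (62.7%) were DEG, where 26.0% of all genes tested in both were. The direction was the same for 577 and opposite for 182. Over all 5565 genes tested in both and called there, the sign was the same for 62.5%. Of 468 genes higher in Control 217 were higher and 78 lower in Ajuba OE, and of 742 genes lower in Control 360 were lower and 104 higher. Without replicate 2 of Ajuba OE and of shAjuba2, the samples low in ribosomal protein genes, 812 of 1223 were DEG (66.4%, against 39.8% of all genes), 602 in the same and 210 in the opposite direction. SYK differed by 3.07 ± 0.09 in Ajuba OE against the knockdown lines, beside 2.79 ± 0.11 between the controls, and PCDH19 by −4.67 ± 0.36 beside −5.41 ± 0.24. CDH1 (2.07 ± 0.15), MPZL2 (2.55 ± 0.13), ASCL2 (2.16 ± 0.14) and SEMA3D (−3.52 ± 0.52) also had the same direction in both. TCIM, higher in Control by 1.48, had −4.26 ± 0.26 in Ajuba OE against the knockdown lines, with means of 0.358 RPM in Ajuba OE, 3.43 in shAjuba1 and 17.6 in shAjuba2. VIL1 (−0.97 between the controls and 1.96 there), CCND2 (−2.94 and 0.56) and PSG11 (1.54 and −1.46) were opposite as well. ROBO1 (−0.14 ± 0.12, adjusted p = 0.443) and COLCA1 (−0.39 ± 0.21, adjusted p = 0.2) did not pass the test there. Of the 75 named DEG tested in both 51 had the same direction, 11 the opposite one and 13 did not pass the test in Ajuba OE.

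**Figure D5:**
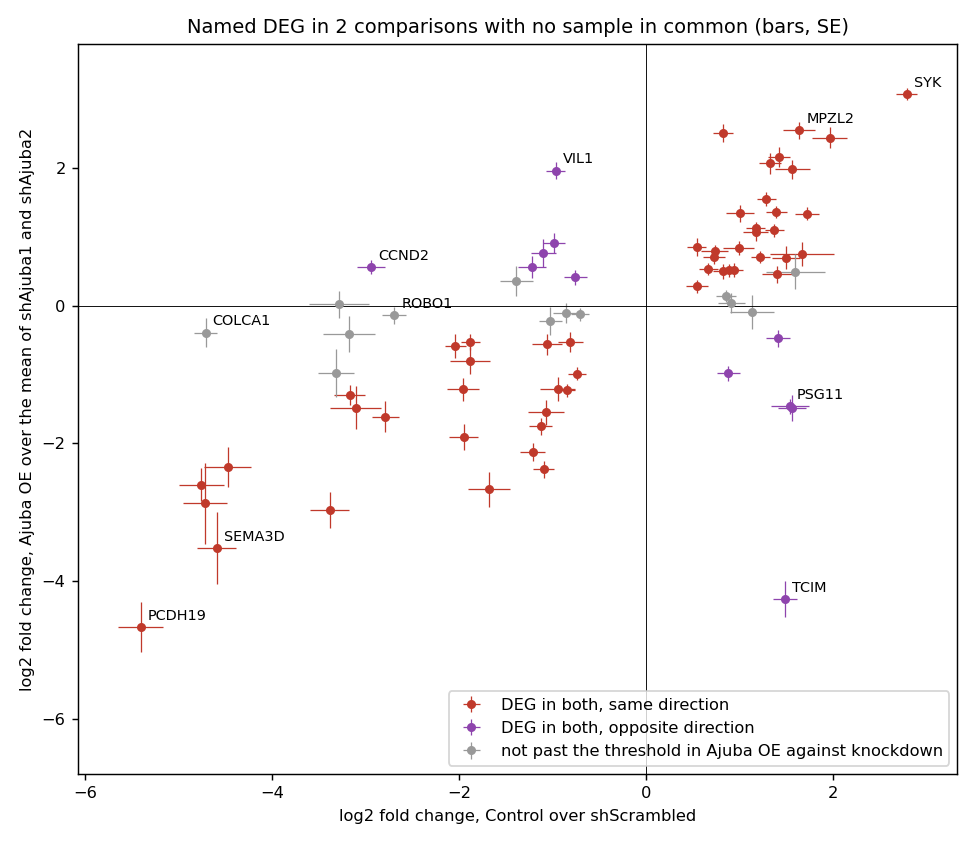
Log2 fold change of Ajuba OE over the mean of shAjuba1 and shAjuba2 (vertical axis) against that of Control over shScrambled (horizontal axis) for the 75 named DEG tested in both, with SE as bars. Most points lie in the lower left and upper right (51 DEG in the same direction, red), 11 lie in the other corners (purple, with TCIM at 1.48 and −4.26), and 13 are grey.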

How the data were processed

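The authors isolated RNA, prepared stranded mRNA libraries and sequenced paired reads of 50 bp. Per the labels they aligned with HISAT2 to GRCh38 and counted with featureCounts. The deposited values are raw read counts per gene, not normalized. Versions, annotation release and strand option are not given in the sources used here. Of 66023 genes 56434 matched GENCODE release 44 and 39955 had a symbol of their own.

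Counts were filtered with filterByExpr, scaled by TMM and tested with edgeR 4.0.16 (R 4.3.3, limma 3.58.1; glmQLFit and glmQLFTest, two-sided, Benjamini-Hochberg over all genes, adjusted p under 0.05) on the samples compared. The SE of a log2 fold change is its size over the root of the F statistic. log2 CPM used a prior count of 2. DESeq2 1.42.0 was an alternative, and the scripts were tested on simulated counts. Whether the same-numbered samples of the 2 lines share more than a number is not given in the sources used here. Figures were drawn in matplotlib 3.10.9 (Python 3.11.15).

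The samples, the 23 gene lists and the tests were chosen with earlier results of these data known. Genes were named among DEG with and without Control 2 in the same direction. They had a symbol of their own, at least 1 RPM in the higher line and no overlap of samples. Taken were the 12 protein-coding genes of smallest adjusted p each way and, at 5 RPM or more, the 6 of largest fold each way. Of other genes 3 were taken each way. For each list up to 4 DEG of smallest adjusted p were added, without the conditions on Control 2, level and overlap. The 7 genes the study names were included as well. Further members of lists were named after their values were seen, and some genes and 1 list are not reported here.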

Additional observations from a re-analysis of the deposited data

How the results depend on the processing

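No named DEG changed direction under an alternative, and AJUBA stayed short of the threshold in all of them. Among the other genes the study names, none of them DEG, LIMD1, WTIP, EPHA2 and RPS6 changed sign without Control 2 (to −0.07, −0.08, −0.02 and 0.25), and the last 3 also without shScrambled 1. The 1272 DEG of the control lines became 2661 with every gene of at least 1 count, 2066 with all 16 samples in the fit, 2010 with Parental in the fit (an alternative chosen after seeing the data) and 613 when a log2 fold change of 1 or more either way was required. Leaving out 1 sample gave 129 to 3669 DEG (142 without shScrambled 1, 129 without shScrambled 2, 959 without Control 1, 3669 without Control 2 and 209 without Control 3). A line left with 1 sample is assumed there to vary like the other line. The other settings without a replicate block gave 1065 to 1479, with DESeq2 the highest. Without Control 2 the 3669 DEG became 1704 with the remaining 15 samples, 927 when a log2 fold change of 1 or more either way was required, and 1795 to 4834 when a further sample was left out (1795 without shScrambled 2). DESeq2 gave 2464. For Ajuba OE against the knockdown lines the 5765 DEG became 2066 when a log2 fold change of 1 or more either way was required, and 8814 without replicate 2 of Ajuba OE and shAjuba2, an alternative also chosen after seeing the data. The cause was not tested.

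With the replicate number as a block 1655 DEG were found between the control lines, 689 higher and 966 lower, and 6016 in Ajuba OE against the knockdown lines. The numbers pair 2 of the samples per line, and their deviations from the line means correlated by 0.229 and 0.271. The deviations of the 2 shScrambled samples mirror each other, so these 2 values are not independent. With the numbers crossed they have the same size and the opposite sign. No paired analysis was possible for the comparison without Control 2 because only 1 number is left in both lines. Of the 76 named DEG, calls were lost for 2 under the block, 2 with thinned counts, 4 without Control 1, 33 without Control 3, 44 without shScrambled 1, 46 without shScrambled 2 and 22 when a log2 fold change of 1 or more either way was required. Depth limits the low genes, such as ROBO2 in Control.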

Other observations

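Genes that differed between the control lines were spread over the chromosomes. Of 849 windows of 25 consecutive tested genes, 12 had a median log2 fold change of at least 0.3 in size relative to all genes (SD of the windows 0.11). The highest 2 were the histone clusters at chr6:26158122-26476621 (0.90) and chr6:26521709-27855709 (0.73). The next was chr19:42397114-43596134 (0.47), where 24 of 25 genes had a positive value. It holds the pregnancy-specific glycoproteins, a family of secreted proteins of the placenta that was examined after this value was seen. All 9 tested members were positive, from 0.36 (PSG5) to 1.54 (PSG11), and PSG1, PSG2, PSG9 and PSG11 were DEG. PSG1 was at a mean of 33.2 RPM in Control and 14.2 RPM in shScrambled (log2 fold change 1.23 ± 0.13, adjusted p = 0.00455 in edgeR's test). The family is near-identical in sequence, so reads may be split between its members, and PSG11 was lower in Ajuba OE than in the knockdown lines (−1.46 ± 0.11). The fourth, chr19:19629476-21196053, had a median of 0.37 with 23 of 25 positive values, and 13 of its genes are named as zinc finger proteins. None of its genes was a DEG. Among the windows lower in Control, that at chr12:51201684-52309163 (−0.33) holds 4 keratin genes that were DEG, KRT7, KRT80, KRT81 and KRT86, and that at chr15:94231538-100350725 (−0.34) holds IGF1R and NR2F2.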
